A study of Mus musculus with 9 samples.

Results

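T cell receptor V gene usage was described in regulatory T cells (Tregs) taken from tumours by sorting for CD4 and GFP, the tumours being of the Lewis lung carcinoma line LLC, grown in wild-type C57BL/6 mice and taken on day 14. RNA-seq was made from 9 pools of 3 to 4 mice each. The 3 anti-b8 pools came from b8-expressing LLC tumours of mice given the anti-b8 antibody C6D4 (7 mg/kg per injection, begun on day 7 and given 2 times weekly). The 3 b8 isotype pools came from b8-expressing LLC tumours of mice given an isotype antibody, and the 3 Mock pools from mock-transfected LLC tumours in mice that the labels call untreated. Here b8 is the β chain of integrin avb8, which activates latent TGF-β. The study asked how this integrin on tumour cells acts on the Tregs of the tumour. Because the Mock mice were untreated, b8 on the tumour and the antibody given cannot be told apart in either comparison with Mock. The GFP reporter, the number of cells per pool and the library batches are not described in the sources used here. The members were the rows of the authors' normalized table whose symbol starts with Trav or Trbv: 98 of 16409 genes, of which 74 were Trav and 24 were Trbv. The unnormalized table held 128 Trav and 35 Trbv rows, so 54 Trav and 11 Trbv rows lay outside the members, and 38 and 10 of these were listed at 0 in all 9 pools. The member of lowest maximum was Trbv11, which reached 1.16 FPKM (a level in fragments scaled by transcript length and by library size) in its highest pool, and the row of highest maximum outside the members was Trav9n-2 at 0.890 FPKM.

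A T cell builds its receptor by joining a V segment to a J segment in the α chain, or to a D and a J segment in the β chain. The V gene encodes the CDR1 and CDR2 loops, which mostly touch the MHC molecule, while CDR3 spans the join and is the part that differs most from clone to clone. A diverse αβ T cell population uses many V genes, and a population made of few large clones uses few, so the share of each V gene is a coarse view of the repertoire that says nothing of CDR3. The Trav members lay on chromosome 14 between 52427928 and 53876752 (GRCm38), all on the plus strand, and were annotated as 67 functional V genes and 7 pseudogenes. This locus holds internal duplications in C57BL/6 mice, and copies in the duplicated blocks carry the letter d or n: 46 Trav members had no letter, 15 had d and 13 had n. A further label, dv, marks 8 Trav members that can also be joined to δ chain segments. The Trbv members lay on chromosome 6 between 40891229 and 41558452, as 22 functional V genes and 2 pseudogenes, with only Trbv31 on the minus strand.

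The sequences of 2 sets of members show how far RNA-seq fragments can tell V genes apart. The Trbv13 genes, the subgroup with the largest summed Trbv share, encode the chains known to antibodies as Vβ8.2 (Trbv13-2, chr6:41121396-41121832), Vβ8.3 (Trbv13-1, chr6:41116007-41116468) and Vβ8.1 (Trbv13-3, chr6:41130147-41130585), all on the plus strand of GRCm38. Shown are the last 300 bases of the coding sequence of each GENCODE M21 transcript, 5′ to 3′, which cover CDR1 and CDR2 and end at the join. In the first of each set, capitals mark each base that differs from either of the others, and in the others they mark each base that differs from the first.
Trbv13-2: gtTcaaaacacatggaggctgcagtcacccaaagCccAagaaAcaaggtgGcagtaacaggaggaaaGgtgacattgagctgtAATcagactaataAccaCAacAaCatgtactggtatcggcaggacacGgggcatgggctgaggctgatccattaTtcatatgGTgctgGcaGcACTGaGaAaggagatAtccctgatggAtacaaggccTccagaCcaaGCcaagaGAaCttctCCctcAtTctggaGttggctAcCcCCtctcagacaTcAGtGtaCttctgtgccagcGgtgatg
Trbv13-1: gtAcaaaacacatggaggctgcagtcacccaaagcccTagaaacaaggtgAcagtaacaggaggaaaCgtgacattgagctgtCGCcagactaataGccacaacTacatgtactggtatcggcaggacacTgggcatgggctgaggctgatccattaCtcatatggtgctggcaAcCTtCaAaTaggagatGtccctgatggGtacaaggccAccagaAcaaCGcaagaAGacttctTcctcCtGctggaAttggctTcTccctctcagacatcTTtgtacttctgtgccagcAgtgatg
Trbv13-3: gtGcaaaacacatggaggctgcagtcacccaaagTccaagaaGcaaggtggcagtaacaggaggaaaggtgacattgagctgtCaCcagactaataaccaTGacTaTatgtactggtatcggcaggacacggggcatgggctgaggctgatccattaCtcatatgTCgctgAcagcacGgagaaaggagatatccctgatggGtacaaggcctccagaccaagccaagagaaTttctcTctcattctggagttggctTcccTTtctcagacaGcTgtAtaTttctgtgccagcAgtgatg
The coding sequences of Trbv13-1 and Trbv13-3 were 88.7% and 90.6% identical to that of Trbv13-2, so that differing bases were spread along the whole segment. The second set is a Trav segment and its d and n copies, Trav7-4 (chr14:53461099-53461738), Trav7d-4 (chr14:52769753-52770392) and Trav7n-4 (chr14:53091346-53091875), on the plus strand, shown because Trav7-4 had the second largest mean Trav share.
Trav7-4: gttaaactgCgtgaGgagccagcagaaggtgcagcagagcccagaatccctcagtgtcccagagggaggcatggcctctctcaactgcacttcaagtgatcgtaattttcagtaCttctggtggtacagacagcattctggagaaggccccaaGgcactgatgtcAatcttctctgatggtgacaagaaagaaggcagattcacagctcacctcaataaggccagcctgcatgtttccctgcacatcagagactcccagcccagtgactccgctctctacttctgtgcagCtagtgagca
Trav7d-4: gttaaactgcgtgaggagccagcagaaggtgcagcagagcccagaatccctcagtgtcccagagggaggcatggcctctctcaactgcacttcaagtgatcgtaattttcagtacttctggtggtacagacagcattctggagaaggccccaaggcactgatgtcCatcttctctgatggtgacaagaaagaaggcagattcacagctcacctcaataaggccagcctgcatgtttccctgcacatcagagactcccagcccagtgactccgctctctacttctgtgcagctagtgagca
Trav7n-4: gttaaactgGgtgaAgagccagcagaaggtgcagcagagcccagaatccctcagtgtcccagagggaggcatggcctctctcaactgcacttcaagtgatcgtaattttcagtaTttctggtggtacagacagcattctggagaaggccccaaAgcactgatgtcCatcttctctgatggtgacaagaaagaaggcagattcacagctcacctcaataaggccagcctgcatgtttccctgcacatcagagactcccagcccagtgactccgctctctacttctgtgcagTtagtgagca
Trav7d-4 was 99.4% and Trav7n-4 was 97.9% identical to Trav7-4, and the stretches shown hold 1 capital in Trav7d-4 and 6 in each of the other lines. Of the 74 Trav members, 48 had another Trav row of at least 97% identity, and 5 had one that was identical over the shorter of both sequences. No Trbv member had such a relative, and the highest identity between Trbv rows was 90.6%. Fragments from near-identical Trav copies can be shared between rows, so the split between copies is uncertain, and the Trav values are also given summed to the subgroup, the number before the hyphen with d and n copies joined.

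The receptor constant genes, the CD3 genes and Cd4, 8 genes together, had high summed levels of 4320 to 5331 FPKM in the pools. Foxp3, the transcription factor that defines Tregs, had 73.98 to 135 FPKM. The 5 Treg markers together had 1709 to 1805 FPKM in the anti-b8 pools, 1933 to 2164 FPKM in the b8 isotype pools and 1461 to 1879 FPKM in the Mock pools. Most of this sum was Tnfrsf18 and Ctla4, and the markers differed in direction. Foxp3 had 121 to 135 FPKM in anti-b8 pools and 73.98 to 111 FPKM in b8 isotype pools. Ikzf2 had 19.1 to 78.7 FPKM and 91.3 to 113 FPKM in these groups. Ctla4 was also lower in every anti-b8 pool than in every b8 isotype pool, and Il2ra and Tnfrsf18 overlapped. Anti-b8 pools 2 and 3 stood apart from the other 7 pools: 26.1% and 28.1% of the 16409 genes were listed at 0 in them, against 9.49% to 12.9% in the others. Their correlation with any other pool was at most 0.856 (Pearson's r of log2 values across genes), against at least 0.908 between any pair of the 7. The values of each pool are therefore given one by one, and the counts and medians of the comparisons are given with and without these 2 pools. An exact 0 in these tables can be a failed estimate, and read totals are not in the tables, so no detection limit can be set on a V gene listed at 0.

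Summed over the β chain V genes, FPKM were highest in the anti-b8 pools, and this sum was not tested. The summed Trbv level was 998, 1062 and 1140 FPKM in anti-b8 pools 1 to 3, 833, 823 and 836 FPKM in the b8 isotype pools, and 637, 814 and 665 FPKM in the Mock pools. These 3 ranges did not overlap. The constant genes Trbc1 and Trbc2, one of which is part of every β chain transcript, together had 1276 ± 122 FPKM in anti-b8 pools, 1006 ± 93.3 FPKM in b8 isotype pools and 979 ± 77.3 FPKM in Mock pools (SD, n = 3 each). The ratio of summed Trbv to summed Trbc was 0.84 ± 0.11 in anti-b8 pools, 0.83 ± 0.080 in b8 isotype pools and 0.72 ± 0.046 in Mock pools, and the 3 groups overlapped. In bulk samples, a difference in the number of cells of a type and one in the RNA per cell cannot be told apart.

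The summed Trav level did not follow the same order. It was 1351, 1095 and 1707 FPKM in anti-b8 pools, 1501, 1376 and 1465 FPKM in b8 isotype pools, and 988, 1282 and 995 FPKM in Mock pools. All b8 isotype pools lay above all Mock pools, while the anti-b8 pools overlapped with both. Trac, the α chain constant gene, had 1899 ± 218 FPKM in anti-b8 pools, 2102 ± 103 FPKM in b8 isotype pools and 1778 ± 187 FPKM in Mock pools. In the limma fit across 12555 genes, Trbc2 had a log2 difference of 0.49 ± 0.098 (SE) for anti-b8 against Mock with an adjusted p of 0.0904, and Trac had 0.41 ± 0.11 for b8 isotype against Mock with an adjusted p of 0.385, so neither passed the threshold of 0.05. Trbc1 made up 38.5 ± 2.77% of Trbc in anti-b8 pools, 40.6 ± 3.09% in b8 isotype pools and 42.2 ± 1.03% in Mock pools (SD, n = 3 each), and these ranges overlapped.

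Trbv13-2, the Vβ8.2 gene, led Trbv usage. Its share of the summed Trbv FPKM was 14.1, 19.7 and 11.8% in anti-b8 pools, 13, 16.7 and 11.5% in b8 isotype pools, and 17.6, 10.6 and 14.5% in Mock pools. It was the leading gene in 5 of the 9 pools, and the groups overlapped. Trbv1 (Vβ2, chr6:40891229-40891885) came next, with 12.5, 10.6 and 12.6% in anti-b8 pools, 13.7, 12.6 and 12.05% in b8 isotype pools, and 7.91, 11 and 5.81% in Mock pools. It led in anti-b8 pool 3 and in b8 isotype pools 1 and 3, and its share in every b8 isotype pool was above that in every Mock pool. Trbv16 (Vβ11, chr6:41151740-41152230) had 7.00, 4.77 and 10.5% in anti-b8 pools, 8.19, 5.92 and 5.73% in b8 isotype pools, and 10.2, 13.1 and 8.14% in Mock pools, where it led in pool 2. The other genes among the 10 of largest mean share were Trbv3, Trbv19 (Vβ6), Trbv13-1 (Vβ8.3), Trbv12-2 (Vβ5.1), Trbv26 (Vβ3), Trbv20 (Vβ15) and Trbv13-3 (Vβ8.1). Their mean shares over the 9 pools ran from 7.99% for Trbv3 down to 3.15% for Trbv13-3. The 5 leading genes of a pool held 49.2 to 58.6% of Trbv FPKM in anti-b8 pools, 48.7 to 54.1% in b8 isotype pools and 50.2 to 53.8% in Mock pools.

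**Figure D1:**
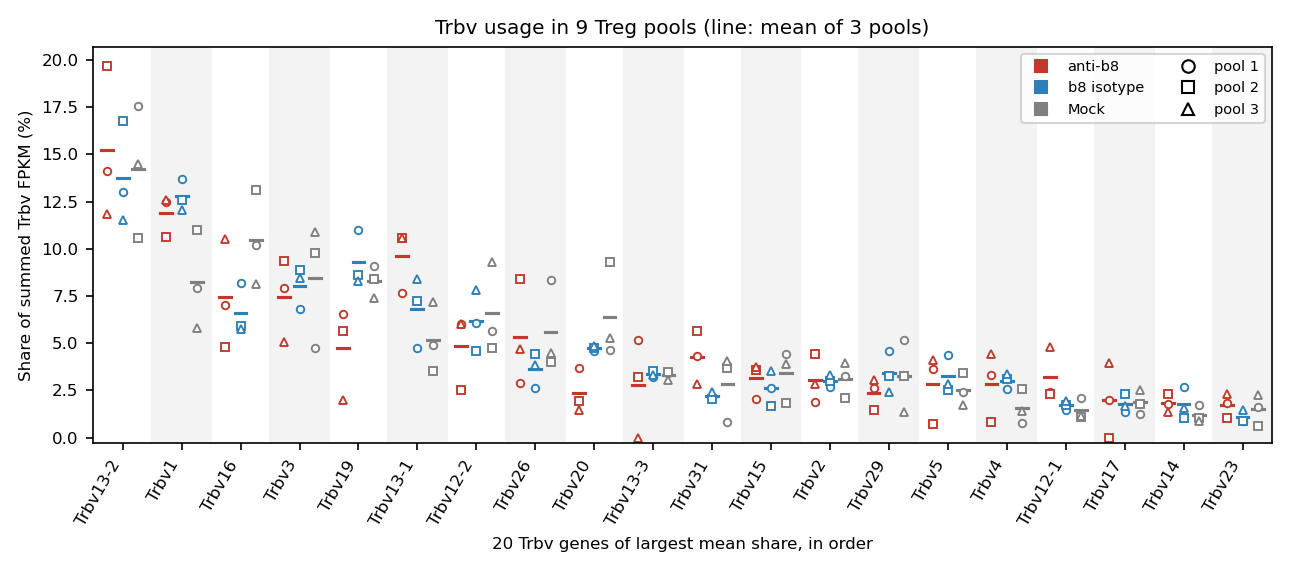
Share of each of the 20 Trbv genes of largest mean share in the summed Trbv FPKM (%), in 3 anti-b8, 3 b8 isotype and 3 Mock pools of Tregs; symbols mark pools 1 to 3 and lines the mean of 3 pools. Trbv13-2 and Trbv1 lie highest, and for Trbv19 and Trbv20 all 3 anti-b8 points lie below all points of both other groups.

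Among the Trbv genes of larger share, Trbv19 and Trbv20 had lower shares in every anti-b8 pool than in every other pool. Trbv19 (chr6:41178375-41179048) had 6.53, 5.62 and 2.00% in anti-b8 pools, 11, 8.63 and 8.28% in b8 isotype pools, and 9.09, 8.39 and 7.37% in Mock pools. Trbv20 (chr6:41188273-41188977) had 3.66, 1.95 and 1.47% in anti-b8 pools, 4.57, 4.76 and 4.87% in b8 isotype pools, and 4.62, 9.32 and 5.27% in Mock pools, of which pool 2 was the highest. Trbv13-1 ran the other way against Mock, with 7.67, 10.6 and 10.6% in anti-b8 pools, 4.72, 7.26 and 8.39% in b8 isotype pools, and 4.89, 3.51 and 7.16% in Mock pools. Its anti-b8 shares lay above all Mock shares and overlapped those of b8 isotype. Trbv3 (4.73 to 10.9% over the 9 pools), Trbv12-2 (2.50 to 9.31%) and Trbv26 (2.63 to 8.41%) overlapped between all 3 groups. Trbv13-3 was listed at 0 in anti-b8 pool 3 and held 3.05 to 5.15% in the other 8 pools. A share has no test of its own here. It is also relative to the summed Trbv level, which was highest in the anti-b8 pools, so a lower share need not be a lower level. The level of Trbv19 was 65.2, 59.6 and 22.8 FPKM in anti-b8 pools, 91.7, 71.0 and 69.3 FPKM in b8 isotype pools, and 57.9, 68.3 and 49.0 FPKM in Mock pools, so that the anti-b8 pools lay below all b8 isotype pools and overlapped with Mock. Its log2 difference in the limma fit was -0.80 ± 0.35 (SE) from b8 isotype (adjusted p = 0.483) and -0.43 ± 0.35 from Mock (adjusted p = 0.608), and neither passed.

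α chain usage was spread over more genes, and no gene led in most pools. Trav9-2 (chr14:53590857-53591514) had the largest mean share, 6.30%, with 3.22, 14.4 and 4.96% in anti-b8 pools, 7.66, 5.24 and 7.39% in b8 isotype pools, and 6.89, 3.53 and 3.47% in Mock pools. The 14.4% of anti-b8 pool 2 was the largest Trav share of any pool. Trav7-4 came next at 6.14%, with 5.51, 2.68 and 5.92% in anti-b8 pools, 5.39, 5.67 and 6.90% in b8 isotype pools, and 6.51, 8.73 and 7.93% in Mock pools. Mock pools lay above all anti-b8 pools for this gene, and overlapped b8 isotype. The leading gene was Trav13-1, Trav9-2 and Trav3-3 in anti-b8 pools 1 to 3, Trav7-5, Trav12-3 and Trav9-2 in b8 isotype pools 1 to 3, and Trav9-2, Trav7-4 and Trav13-1 in Mock pools 1 to 3, so 6 genes led in at least 1 pool. The other genes among the 10 of largest mean share were Trav14-2, Trav5-4, Trav9-1 and Trav9-4, down to a mean of 2.74% for Trav9-4.

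**Figure D2:**
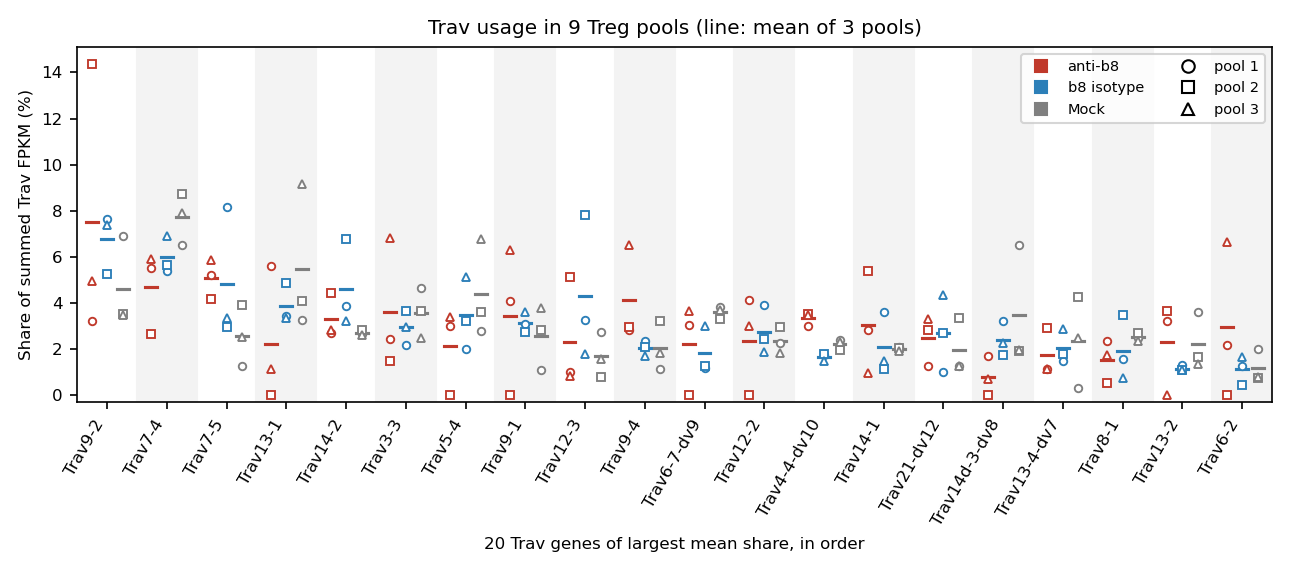
Share of each of the 20 Trav genes of largest mean share in the summed Trav FPKM (%), in 3 anti-b8, 3 b8 isotype and 3 Mock pools of Tregs; symbols mark pools 1 to 3 and lines the mean of 3 pools. The highest point is Trav9-2 in anti-b8 pool 2 at 14.4%, and that pool is at 0 for Trav13-1, Trav5-4 and Trav9-1, which are above 0 in the other 8 pools.

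Several abundant Trav genes were listed at 0 in a single anti-b8 pool. Trav13-1 (chr14:53545014-53545525) had 75.7, 0 and 19.2 FPKM in anti-b8 pools, 51.8, 66.9 and 48.9 FPKM in b8 isotype pools, and 32.1, 52.2 and 91.3 FPKM in Mock pools. Trav5-4 had 40.4, 0 and 57.7 FPKM in anti-b8 pools, 29.9, 44.6 and 75.5 FPKM in b8 isotype pools, and 27.7, 46.6 and 67.5 FPKM in Mock pools. Anti-b8 pool 2 alone was at 0 for both genes, and anti-b8 pool 3 was the next lowest for Trav13-1. Other genes varied several-fold without reaching 0. Trav12-3 had 13.9, 56.0 and 14.4 FPKM in anti-b8 pools, 49.3, 107 and 26.3 FPKM in b8 isotype pools, and 27.0, 10.5 and 15.9 FPKM in Mock pools, and Trav7-5 had 70.5, 46.0 and 100 FPKM in anti-b8 pools, 122, 40.9 and 49.3 FPKM in b8 isotype pools, and 12.4, 50.1 and 25.3 FPKM in Mock pools. Both overlapped between every pair of groups.

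Over all 74 Trav members, 31 were listed at 0 in anti-b8 pool 2 and 30 in anti-b8 pool 3, against 6 in anti-b8 pool 1, 2 to 7 in b8 isotype pools and 4 to 9 in Mock pools. Of these genes 15 were at 0 in both anti-b8 pools 2 and 3, 16 in pool 2 but not pool 3, and 15 in pool 3 but not pool 2. Of the 57 that were above 0 in all of the other 7 pools, 18 were at 0 in pool 2, 14 in pool 3 and 2 in both. Among Trav genes with a mean of at least 5 FPKM in the 7 other pools, 21 of 58 (36.2%) were at 0 in pool 2 and 16 (27.6%) in pool 3, while 5.54% and 6.64% of the 7942 genes of any kind at that level were. Of the Trbv genes at that level, 1 of 20 (5.00%) was at 0 in each pool, Trbv17 in pool 2 and Trbv13-3 in pool 3, near the share of all genes. With a mean of at least 20 FPKM, 6 of 22 Trav genes (27.3%) were at 0 in pool 2 and 2 (9.09%) in pool 3, beside 2.27% and 2.64% of 4054 genes. Zeros were found among near-identical copies and among the other genes: in pool 2, 19 of the 48 Trav members with a relative of at least 97% identity (39.6%) and 12 of the other 26 (46.2%) were at 0, and in pool 3, 20 (41.7%) and 10 (38.5%) were. The genes of any kind were chosen only by a floor on mean FPKM, and were not matched to the V genes in level or length. At equal FPKM a shorter transcript rests on fewer fragments, and the median transcript was 380 nt for Trav and 369 nt for Trbv members. The parts that transcript length and the lower detection of genes of all kinds in these pools play in the Trav zeros were not tested.

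Diversity was summarised as the effective number of genes, the number of equally used genes that would give the same Shannon entropy. For Trav it was 47.0, 30.3 and 32.1 in anti-b8 pools, 45.0, 41.5 and 45.1 in b8 isotype pools, and 44.0, 45.2 and 41.0 in Mock pools. Anti-b8 pool 1 was the highest of the 9 and anti-b8 pools 2 and 3 the lowest, so the group mean of 36.4 ± 9.15, against 43.9 ± 2.02 in b8 isotype and 43.4 ± 2.16 in Mock (SD, n = 3 each), rested on those 2 pools. The inverse Simpson index, which weighs common genes more, had the same outliers, with 37.3, 21.7 and 25.6 in anti-b8 pools, 32.0, 30.4 and 33.8 in b8 isotype pools, and 33.3, 34.0 and 29.0 in Mock pools.

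For the β chain the groups overlapped. The effective number of Trbv genes was 16.7, 14.0 and 16.2 in anti-b8 pools, 16.1, 15.7 and 17.1 in b8 isotype pools, and 15.2, 15.6 and 16.1 in Mock pools. The means of 15.6 ± 1.47, 16.3 ± 0.705 and 15.6 ± 0.488 in anti-b8, b8 isotype and Mock pools (SD, n = 3 each) differed by less than the SD of the anti-b8 pools. Only anti-b8 pool 2 lay below the other 8, and it was also the pool with the largest Trbv13-2 share. Summed to subgroups, where copies no longer count apart, Trav usage had 12.9, 11.95 and 11.5 effective subgroups in anti-b8 pools. It had 11.96, 13.1 and 13.1 in b8 isotype pools, and 12.6, 13.1 and 12.3 in Mock pools. At that level anti-b8 pool 3 was the lowest, while anti-b8 pool 2 and b8 isotype pool 1 were nearly equal, so pool 2 no longer stood apart.

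**Figure D3:**
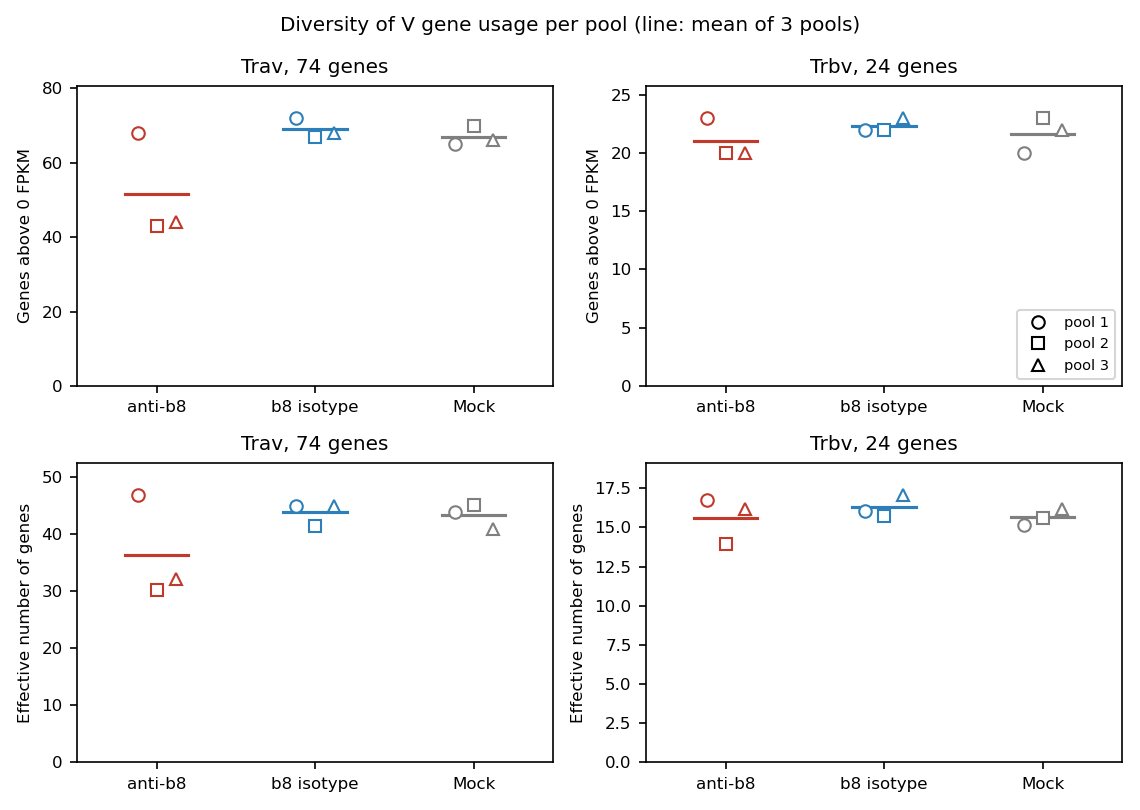
Number of members above 0 FPKM (upper panels) and effective number of genes (lower panels) for 74 Trav and 24 Trbv members, in 3 anti-b8, 3 b8 isotype and 3 Mock pools; symbols mark pools 1 to 3 and lines the mean of 3 pools. For Trav, anti-b8 pools 2 and 3 have 43 and 44 genes above 0 against 65 to 72 in the other 7 pools, while the Trbv values of the groups overlap.

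Likeness of pools was measured as the overlap of 2 usage profiles, the sum over genes of the smaller of both shares, which is 100% for identical usage. Within groups, Trav overlap was 55.5 ± 10.9% in anti-b8, 73.5 ± 0.691% in b8 isotype and 71.4 ± 3.78% in Mock (SD over 3 pairs, which share pools). Between groups it was 63.8% for anti-b8 with b8 isotype, 61.7% for anti-b8 with Mock and 71.0% for b8 isotype with Mock, each a mean of 9 pairs. Without anti-b8 pools 2 and 3, the 6 pairs from the same group overlapped by 72.5 ± 2.68% and the 15 pairs from different groups by 72.5 ± 3.43%. These means differed by far less than the SD of either. Anti-b8 pool 1 overlapped with the other 6 of these pools by 74.6% on average. Anti-b8 pool 2 overlapped with the 7 by 51.7% (43.1 to 55.7%), anti-b8 pool 3 by 63.0% (58.3 to 67.0%), and these 2 pools with each other by 45.5%.

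Trbv profiles, over fewer genes, overlapped more than Trav profiles within each group and between each pair of groups. Within groups the overlap was 76.7 ± 4.66% in anti-b8, 88.1 ± 2.25% in b8 isotype and 78.9 ± 1.37% in Mock. Between groups it was 81.0% for anti-b8 with b8 isotype, 76.4% for anti-b8 with Mock and 82.8% for b8 isotype with Mock. Without anti-b8 pools 2 and 3, same-group pairs overlapped by 83.5 ± 5.31% and different-group pairs by 83.6 ± 3.25%. Anti-b8 pools 2 and 3 overlapped with the 7 by 75.8% and 76.4%, and with each other by 71.5%. The highest Trbv overlap was 90.7%, between b8 isotype pools 2 and 3, followed by 89.6% between anti-b8 pool 1 and b8 isotype pool 3.

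**Figure D4:**
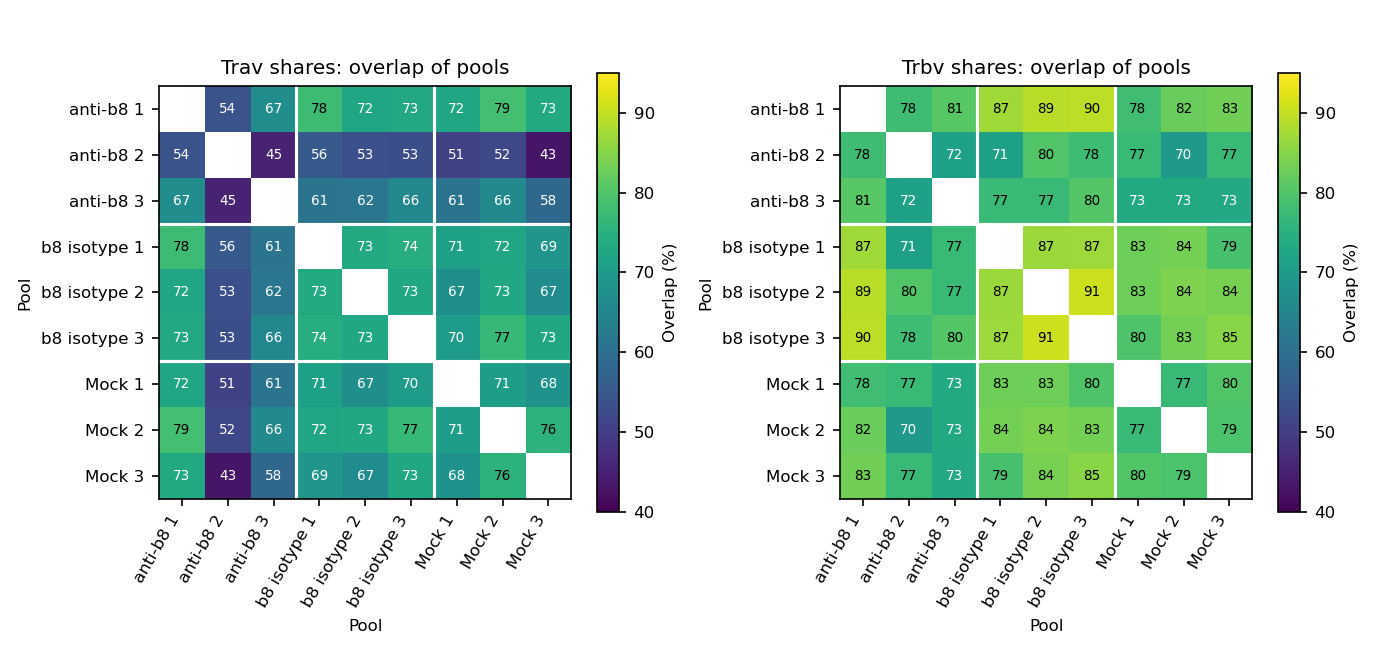
Overlap of V gene usage between each pair of 9 pools (%, colour and rounded digits) for Trav (left) and Trbv (right), with pools ordered anti-b8, b8 isotype, Mock and white lines between groups. The rows of anti-b8 pools 2 and 3 are the darkest in the Trav panel, with 45.5% for the pair of them, and the brightest cell of the Trbv panel is b8 isotype pools 2 and 3 at 90.7%.

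By subgroup, Trav7 held the largest mean share at 15.6%, followed by Trav9 at 13.7%, Trav14 at 10.9%, Trav13 at 10.5% and Trav6 at 9.39%. Trav9 had 12.6, 19.96 and 18.9% in anti-b8 pools, 15.03, 12.1 and 13.6% in b8 isotype pools, and 10.2, 10.8 and 10.4% in Mock pools, so that both other groups lay above Mock in every pool. Trav13, the subgroup with most members, had 12.3, 8.06 and 3.61% in anti-b8 pools, 8.74, 9.95 and 11.5% in b8 isotype pools, and 11.1, 14.4 and 15.01% in Mock pools, with anti-b8 pool 3 the lowest. Trav5 was listed at 0 in anti-b8 pool 2 and held 2.91 to 9.80% in the other pools. Subgroup profiles overlapped by 84.2% on average among the 7 pools, while anti-b8 pools 2 and 3 overlapped with those by 77.6% and 76.4%. Members without a letter held 80.5, 80.4 and 85.1% of Trav FPKM in anti-b8 pools, 76.6, 77.8 and 80.1% in b8 isotype pools, and 72.8, 79.7 and 82.3% in Mock pools. The d copies held 17.9% in Mock pool 1 and 6.40 to 11.6% in the other 8 pools. In the β chain, Trbv13 held 27.0, 33.5 and 22.4% in anti-b8 pools, 20.9, 27.5 and 23.2% in b8 isotype pools, and 25.9, 17.6 and 24.7% in Mock pools, and the groups overlapped.

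Levels of single V genes were compared between groups with limma, fitted on log2(FPKM + 1) of the normalized table over all 12555 genes that reached 1 FPKM in at least 3 pools. Of the 98 members, 90 passed this filter (68 Trav and 22 Trbv). The 8 others, Trav13d-3, Trav14n-1, Trav15-2-dv6-2, Trav18, Trav20, Trav3-2, Trbv11 and Trbv21, reached at most 9.91 FPKM in any pool and were not tested. Differences are log2 differences with SE, and each p-value rests on how much the pools of mice spread. No V gene passed the adjusted threshold of 0.05 in any of the 3 comparisons. Trav genes varied more than most: their median SE was 0.77, against 0.38 for Trbv genes and 0.45 for all genes tested.

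The comparison of anti-b8 with b8 isotype asks what the anti-b8 antibody did in b8-expressing tumours. None of 90 V genes passed, beside 0.0637% of all genes tested, and the smallest adjusted p was 0.381. At an unadjusted p below 0.05, 6 V genes were higher (6.67%, against 3.97% of all genes) and 9 were lower (against 6.20% of all genes). Pools of the groups did not overlap for 7 V genes that were higher and 7 that were lower (7.78% each), near the 7.34% and 7.63% of all genes. The median log2 difference was -0.40 over 68 Trav genes and 0.25 over 22 Trbv genes, beside -0.036 over all genes. Without anti-b8 pools 2 and 3, which leaves 1 anti-b8 pool assumed to vary like the other groups, the Trav median turned to 0.13, the Trbv median was 0.28 and that of all genes 0.017. The V genes at that unadjusted p then numbered 5 higher and 3 lower of 88 (9.09%, against 5.04% of all genes), and those without overlap 28 higher (31.8%, against 27.1%) and 16 lower (18.2%, against 25.5%). The total of 15 V genes at that p (16.7%, against 10.2% of all genes) also fell to 7 of 88 without b8 isotype pool 1 (7.95%, against 6.37%), and to 9 of 90 without b8 isotype pool 2 (10%, against 6.57%) or pool 3 (10%, against 6.05%). All 8 Trav genes lower at that unadjusted p with all pools were listed at 0 in anti-b8 pool 2 or 3, 5 of them in both, and none of the 3 higher ones was. Without anti-b8 pool 1, Trav6-4 passed (adjusted p = 0.0288), from the 2 anti-b8 pools in which it was listed at 0.

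Among the V genes of smallest p, Trav4-4-dv10 (chr14:53683647-53684177), which can also be used by δ chains, had 40.9, 38.7 and 59.2 FPKM in anti-b8 pools, 26.4, 24.4 and 22.0 FPKM in b8 isotype pools, and 23.6, 25 and 22.9 FPKM in Mock pools. All 3 anti-b8 pools lay above the other 6, with a log2 difference of 0.89 ± 0.25 from b8 isotype (adjusted p = 0.381). Trbv12-1 (Vβ5.2, chr6:41113550-41114067) had 24.2, 24.7 and 54.8 FPKM in anti-b8 pools, 12, 14.2 and 16.3 FPKM in b8 isotype pools, and 13.3, 8.96 and 7.54 FPKM in Mock pools. It was likewise higher in each anti-b8 pool than in any other, by 1.15 ± 0.38 over b8 isotype (adjusted p = 0.424). Trbv13-1 had 76.6, 112 and 121 FPKM in anti-b8 pools, 39.4, 59.7 and 70.2 FPKM in b8 isotype pools, and 31.2, 28.5 and 47.6 FPKM in Mock pools. Its difference from b8 isotype was 0.86 ± 0.30 (adjusted p = 0.430), with no overlap.

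The lower genes of smallest p were all listed at 0 in anti-b8 pool 2. Trav6-4 (chr14:53454296-53454784) had 6.07, 0 and 0 FPKM in anti-b8 pools, 8.57, 13.4 and 10.9 FPKM in b8 isotype pools, and 12.9, 8.02 and 25.2 FPKM in Mock pools. Even anti-b8 pool 1 lay below the other 6 pools, and the log2 difference from b8 isotype was -2.50 ± 0.72 (adjusted p = 0.381). Trav10d had 1.74, 0 and 0 FPKM in anti-b8 pools, 10.1, 4.00 and 2.04 FPKM in b8 isotype pools, and 1.40, 0.457 and 0 FPKM in Mock pools, a difference of -1.82 ± 0.59 from b8 isotype (adjusted p = 0.424). The b8 isotype pools thus lay above all 6 others for this gene, by 1.82 ± 0.59 over Mock (adjusted p = 0.610), and the anti-b8 and Mock pools overlapped. Trav8d-1 had 3.51, 0 and 15.4 FPKM in anti-b8 pools, 21.9, 13.1 and 32.6 FPKM in b8 isotype pools, and 4.11, 7.15 and 13.2 FPKM in Mock pools, a difference of -2.37 ± 0.84 from b8 isotype (adjusted p = 0.430), and all 3 groups overlapped.

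The comparison of b8 isotype with Mock sets b8-expressing tumours against mock-transfected ones. None of 90 V genes passed, beside 0.00796% of all genes, and the smallest adjusted p was 0.385. At an unadjusted p below 0.05, 10 were higher (11.1%, against 2.99% of all genes) and 1 was lower (1.11%, against 2.58%). Pools did not overlap for 15 V genes that were higher (16.7%, against 8.98%) and for 3 that were lower (3.33%, against 8.47%). The median log2 difference was 0.27 over Trav genes and 0.20 over Trbv genes, beside 0.0087 over all genes, in the direction in which Trac and Trbc2 also lay. These 11 V genes at an unadjusted p below 0.05 (12.2%, against 5.57% of all genes) numbered 20 of 88 in a fit of only the 6 pools of both groups (22.7%, against 12.6%), and 19 of 88 without anti-b8 pools 2 and 3, which enter only through the shared estimate of spread (21.6%, against 12.4%, with 16 higher and 3 lower). Trav14n-3 (chr14:53370077-53370575) had 21.1, 23.9 and 29.9 FPKM in anti-b8 pools, 38.5, 58.2 and 13.9 FPKM in b8 isotype pools, and 12.4, 4.85 and 5.37 FPKM in Mock pools, a difference of 2.00 ± 0.52 for b8 isotype from Mock (adjusted p = 0.385). Trav14-2 had 36.4, 48.5 and 48.1 FPKM in anti-b8 pools, 58.3, 93.1 and 47.2 FPKM in b8 isotype pools, and 26.2, 36.1 and 26.2 FPKM in Mock pools, a difference of 1.04 ± 0.27 (adjusted p = 0.400).

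Trbv1 had 125, 113 and 144 FPKM in anti-b8 pools, 114, 103 and 101 FPKM in b8 isotype pools, and 50.4, 89.6 and 38.6 FPKM in Mock pools. Every pool from a b8-expressing tumour lay above every Mock pool, with a difference of 0.90 ± 0.25 for b8 isotype (adjusted p = 0.456) and 1.11 ± 0.25 for anti-b8 (adjusted p = 0.114), both against Mock and so sharing its pools. In the lower direction Trav14-3 had 13.3, 12.7 and 19.995 FPKM in anti-b8 pools, 10.6, 8.13 and 6.08 FPKM in b8 isotype pools, and 16.4, 14.6 and 10.6 FPKM in Mock pools, a difference of -0.81 ± 0.35 for b8 isotype from Mock (adjusted p = 0.843). Trav6d-5 (-1.73 ± 1.23) and Trav7d-4 (-0.48 ± 0.36) followed with an adjusted p of 1.00 each. Trav14-3 and Trav14n-3 are 97.2% identical, and fragments of these genes, which differed in direction, can be shared.

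The comparison of anti-b8 with Mock had the V genes closest to the threshold. None of 90 passed, beside 0.183% of all genes, with a smallest adjusted p of 0.0916. At an unadjusted p below 0.05, 17 were higher (18.9%, against 6.09% of all genes) and 3 were lower (3.33%, against 7.87%). Pools did not overlap for 14 higher (15.6%, against 7.89%) and 2 lower V genes (2.22%, against 8.40%). The Trbv genes had a median log2 difference of 0.43, with 17 of 22 above 0, and the Trav genes one of -0.12, with 33 of 68 above 0, beside -0.025 over all genes and 48.3% above 0. Without anti-b8 pools 2 and 3, the Trbv median was 0.73, the Trav median turned to 0.36 and that of all genes was 0.032. The V genes at an unadjusted p below 0.05 were then 14 higher and none lower of 88 (15.9%, against 9.12% of all genes), and those without overlap 39 higher (44.3%, against 27.5%) and 5 lower (5.68%, against 25.1%). Trbv13-1 had the smallest p of all V genes, at 1.46 ± 0.30 (adjusted p = 0.0916). Trbv12-1 followed Trbv1, at 1.57 ± 0.38 (adjusted p = 0.134). Without anti-b8 pool 1, 3 V genes passed, namely Trav6-4, Trbv13-1 and Trbv30 (smallest adjusted p = 0.0172).

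In the lower direction, Trav6-4 differed from Mock by -2.92 ± 0.72 (adjusted p = 0.140). Trbv20 had 36.6, 20.7 and 16.7 FPKM in anti-b8 pools, 38.1, 39.2 and 40.7 FPKM in b8 isotype pools, and 29.4, 75.9 and 35 FPKM in Mock pools, a difference of -0.90 ± 0.36 from Mock (adjusted p = 0.317). Its level overlapped between anti-b8 and Mock, unlike its share. Trav14d-3-dv8 had 23.2, 0 and 12.3 FPKM in anti-b8 pools, 48.6, 24.1 and 33.3 FPKM in b8 isotype pools, and 64.4, 24.8 and 19.5 FPKM in Mock pools, a difference of -2.24 ± 1.00 from Mock (adjusted p = 0.357).

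**Figure D5:**
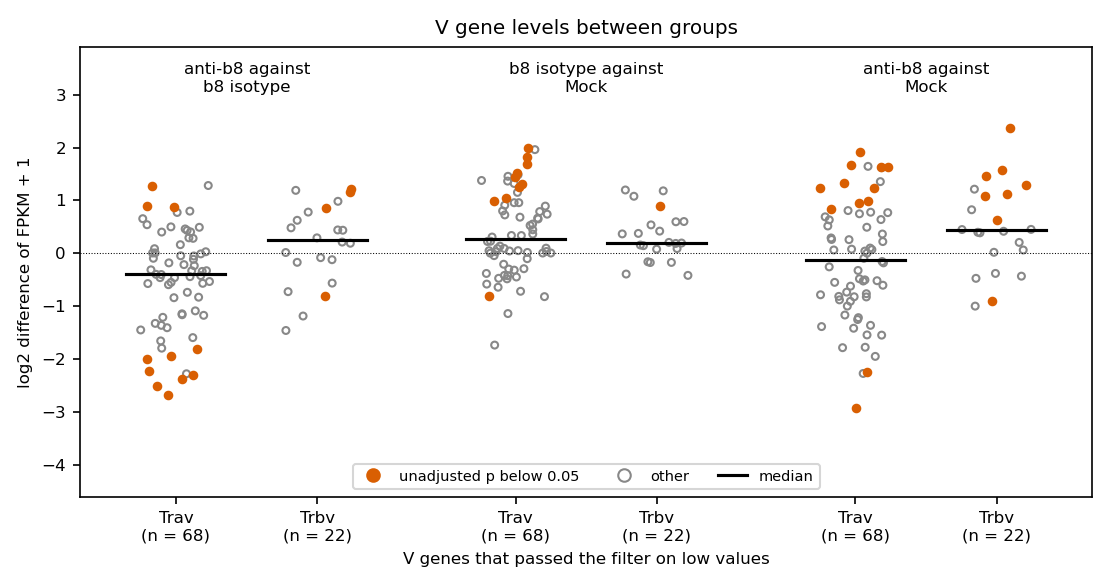
Log2 difference of FPKM + 1 (normalized table, limma) for each of 68 Trav and 22 Trbv genes that passed the filter on low values, in anti-b8 against b8 isotype, b8 isotype against Mock and anti-b8 against Mock; filled points have an unadjusted p below 0.05 and lines mark the median. Trav points spread more widely than Trbv points, the anti-b8 against b8 isotype Trav median is -0.40 (0.13 without anti-b8 pools 2 and 3), and no point passes the adjusted threshold.

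V segments and marker genes of other lymphocytes were read beside these values. The invariant NKT cell chain joins Trav11 or Trav11d to Traj18, a J segment that other αβ T cells can use as well. Trav11 and Trav11d were listed at 0 in all 9 pools, but the member Trav11n, annotated as a pseudogene and 97.7% identical to Trav11, had 0.771, 0 and 13.5 FPKM in anti-b8 pools, 0.710, 6.23 and 5.81 FPKM in b8 isotype pools, and 8.02, 8.76 and 0.747 FPKM in Mock pools. Fragments of these copies can be shared between rows, so the zeros do not show that the segment was absent. Traj18 had 51.2, 224 and 156 FPKM in anti-b8 pools, 91.1, 232 and 101 FPKM in b8 isotype pools, and 148, 0 and 289 FPKM in Mock pools, with overlap of all groups. Rag1 and Rag2, the recombinase genes active in developing lymphocytes, were at 0 in all pools, while Dntt reached 0.0505 FPKM in 1 b8 isotype pool. Trav1, the segment of MAIT cells that other αβ T cells also use, held 1.24, 1.58 and 0.872% of Trav FPKM in anti-b8 pools, 0.977, 2.19 and 1.46% in b8 isotype pools, and 1.18, 0.688 and 0.438% in Mock pools. The sum of 9 γδ T cell genes was 276, 41.9 and 133 FPKM in anti-b8 pools, 121, 82.4 and 39.0 FPKM in b8 isotype pools, and 120, 146 and 65.5 FPKM in Mock pools, with anti-b8 pool 1 the highest. The 8 dv members, which γδ T cells can use, held 11.5 to 13.5% of Trav FPKM in anti-b8 pools, 9.53 to 15.7% in b8 isotype pools and 13.6 to 16.1% in Mock pools. Their part in the Trav results was not tested.

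The summed level of 4 B cell markers was 405 to 533 FPKM in anti-b8 pools, 319 to 428 FPKM in b8 isotype pools and 232 to 329 FPKM in Mock pools, most of it Ighm, and its mean had the order of the summed Trbv level. For 2 CD8 T cell markers the ranges were 27.0 to 54.0, 22.1 to 40.6 and 16.8 to 28.3 FPKM in anti-b8, b8 isotype and Mock pools, with Cd8a at 0 in 2 Mock pools. Fibroblast markers had 18.7 to 65.9 FPKM in anti-b8 pools, 48.3 to 152 FPKM in b8 isotype pools and 7.31 to 9.91 FPKM in Mock pools, while myeloid markers had 351 to 566, 142 to 489 and 231 to 440 FPKM and NK and NKT markers 5.97 to 13.7, 2.99 to 5.42 and 3.41 to 4.72 FPKM in anti-b8, b8 isotype and Mock pools. The order of means of the summed Trbv level was also that of the CD8 T cell markers and of the NK and NKT markers. It was not that of the fibroblast or myeloid markers. Each marker of these lists was above 0 in at least 1 pool, and the part of other cells in the V gene levels was not tested.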

How the data were processed

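Gene expression was measured in 9 pools of tumour Tregs, 3 per group, with full-length cDNA from the SMART-Seq v4 Ultra kit and Nextera XT libraries, per the labels' protocols. The method has no molecular identifiers and no strand marking. The authors deposited FPKM for every gene in an unnormalized and a normalized table. From its values, the normalized FPKM table deposited by the authors was quantile normalized. Per the submitters' processing notes, Cufflinks, RSEM 1.3.1, Picard, STAR 2.6.1a and Trim Galore 0.5.0 were used with the build GRCm38, in roles that are not stated. The authors' annotation release was not given in the sources used here, so coordinates, gene classes and sequences were taken from GENCODE M21. Read totals are not in the tables, so depth is unknown.

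The normalized table has no symbols for these genes, so members were matched by gene identifier to the symbols of the unnormalized table, from which 1 row with shifted cells was left out. Shares, effective numbers and overlaps were computed from unnormalized FPKM, with no test. Levels were compared on log2(FPKM + 1) of the normalized table with limma 3.58.1 in R 4.3.3 (group means of all 9 pools, trend and robust moderation, two-sided, Benjamini-Hochberg adjustment over 12555 genes with at least 1 FPKM in at least 3 pools, threshold 0.05); the script was tested on simulated data. This scale understates changes of low genes. Identity was computed from global alignments of coding sequences with Biopython 1.88, as matching bases over the length of the shorter sequence, with end gaps free. Where no coding part was annotated, the whole transcript was used. Members and lists were chosen with earlier results of these data known. Named genes were the 10 of largest mean share per chain, the 5 of largest range per chain, the leading gene of each pool, and the 3 of smallest p per direction and comparison, besides Trav1, Trav11, Trav11d and receptor and Treg genes. One marker of the B cell list is not reported here. Alternatives changed the table, pseudocount, filter, samples, replicate block, moderation, set of rows, subgroup level and low values, and left out each pool.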

Additional observations from a re-analysis of the deposited data

How the results depend on the processing

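None of the 17 alternatives called a V gene for b8 isotype against Mock (smallest adjusted p 0.0993 to 1.00), and 16 of 17 called none for anti-b8 against b8 isotype (0.0288 to 0.787) and for anti-b8 against Mock (0.0172 to 0.333). The exception in both was leaving out anti-b8 pool 1, which keeps the 2 pools of low detection: it called 1 V gene, Trav6-4, against b8 isotype and 3, Trav6-4, Trbv13-1 and Trbv30, against Mock. Leaving out each pool in turn thus gave 0 to 1, 0 to 0 and 0 to 3 calls for anti-b8 against b8 isotype, b8 isotype against Mock and anti-b8 against Mock. The replicate block called 0 in each (smallest adjusted p 0.414, 0.432 and 0.0696), and same-numbered pools had deviations correlated at -0.040 to 0.046, so the numbers were not taken to pair them. Without both anti-b8 pools 2 and 3, an alternative chosen after the data were seen, 0 of 88 V genes were called in any comparison, with the lone anti-b8 pool assumed to vary like the others. Over all 17 alternatives, V genes at an unadjusted p below 0.05 numbered 7 to 21, 8 to 20 and 14 to 27, against 15, 11 and 20 with the settings of the report, for anti-b8 against b8 isotype, b8 isotype against Mock and anti-b8 against Mock.

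Effective numbers and overlaps kept within 1 SD of the main value with normalized shares, all rows of the chain or values under 1 FPKM set to 0. Summed to subgroups, the mean effective number was 12.1, 12.7 and 12.7 for Trav and 11.7, 12.5 and 12.3 for Trbv in anti-b8, b8 isotype and Mock pools, and the Trav overlap within groups was 77.9, 82.9 and 84.7%. Leaving out each pool in turn gave a Trav effective number of 31.2 to 39.5 in anti-b8, 43.3 to 45.0 in b8 isotype and 42.5 to 44.6 in Mock, and a Trbv one of 15.1 to 16.5, 15.9 to 16.6 and 15.4 to 15.9. The overlap within groups was 45.5 to 67.0, 72.8 to 74.2 and 68.1 to 75.6% for Trav, and 71.5 to 80.6, 86.8 to 90.7 and 77.4 to 80.0% for Trbv, in the same order of groups. Without both anti-b8 pools 2 and 3, the anti-b8 Trav effective number was 47.0, from 1 pool, and no overlap within anti-b8 could be given. Joining rows into subgroups cannot raise an effective number or lower an overlap, so the direction of that shift follows from the measures. The cause of the other shifts was not tested.

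Depth is unknown, so genes at 0 cannot be told from genes below detection. Fragments of near-identical Trav copies can be shared between rows. FPKM levels of rearranged segments depend on how fragments across the join were assigned, which the sources used here do not state.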

Other observations

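The J segments, which the V genes are joined to, were listed as rows of their own and were summed after the V gene values had been seen. The 60 Traj rows, of which 19 were at 0 in all pools, summed to 2513, 1764 and 2870 FPKM in anti-b8 pools, 3607, 2818 and 4605 FPKM in b8 isotype pools, and 3571, 3406 and 2783 FPKM in Mock pools. The anti-b8 pools overlapped with both other groups. The 14 Trbj rows summed to 1491, 1705 and 443 FPKM in anti-b8 pools, 1445, 1995 and 1618 FPKM in b8 isotype pools, and 1595, 1772 and 1417 FPKM in Mock pools. Anti-b8 pool 3 was the only pool below 1417 FPKM. Its 443 FPKM was all Trbj1-1, and every other Trbj row was listed at 0 in that pool. A Trbj row above 0 had at least 183 FPKM in any pool, so each sum rests on few rows. The summed Trbv level of anti-b8 pool 3, 1140 FPKM over many more rows above 0, was the highest of the 9.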
